A study of Brachypodium distachyon with 9 samples.

Results

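CAD5 is a gene of cinnamyl alcohol dehydrogenase, an enzyme of lignin synthesis, and it was followed here through 9 libraries of droughted shoots of the grass Brachypodium distachyon. It was taken as the row of that gene name in both deposited tables, which is 1 feature of 28607 in the count table. The gene lies on the minus strand of chromosome 3, from 4691034 to 4694934 in the assembly Brachypodium_distachyon_v3.0, a span of 3901 bases. RefSeq gives it as protein-coding, with 1 transcript model. No annotated gene of the RefSeq table overlaps it, so reads of an overlapping or antisense gene model do not enter its count. The deposited annotation gives the symbol without a description. Near-identical copies elsewhere in the genome were not analysed here, and neither were the sequences of the gene, its promoter and its protein.

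Whole aboveground shoots of cultivar 21-3 were sampled in 3 genotypes with 3 biological replicates each. Wild type was compared with a pair of CRISPR/Cas9 lines of the same background, gf14h-1 (label CR:gf14h-1), edited in GF14h, which encodes a 14-3-3 protein, and hdac19-2b (label CR:hdac19-2b), edited in HISTONE DEACETYLASE 19 (HDAC19). The labels give each mutant as homozygous, with an early stop codon from an edit in exon 1, and each gene is represented by 1 mutant allele. Every group, wild type included, had 18 days of growth under 14 h of light, followed by 15 days of withheld water under 16 h of light, and a watered control was not analysed here. All were collected at the 5-leaf stage, 3 h after dawn. Neither mutated gene could be matched by name to a deposited feature, and their transcripts were not analysed here.

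Cinnamyl alcohol dehydrogenase reduces hydroxycinnamaldehydes to monolignols, the alcohols that are exported to the cell wall and joined into lignin by laccases and peroxidases. Lignin stiffens and waterproofs the walls of xylem vessels, which carry water through the shoot, and stiffens those of fibres. In maize and sorghum, loss of the main enzyme of this kind gives brown midribs and altered lignin. Genes of secondary wall synthesis are switched on by NAC transcription factors, which in Brachypodium carry the name SWN.

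Library totals ran from 3302835 to 36632994 counts. Of the 9 libraries, gf14h-1 replicate 3 had the lowest total and wild type replicate 3 the highest. In that shallowest library 3 counts correspond to 1.06 CPM (the usual scaling of counts to a common library total, here with the TMM method, which adjusts each total for composition), and in the deepest to 0.0840 CPM. Within a genotype, the lowest correlation of log2 CPM across features was 0.824, between gf14h-1 replicates 1 and 3, and the highest was 0.940, between wild type replicates 2 and 3. As a check of the tissue, all 5 chloroplast genes taken as green shoot markers (psbA, psbD, psaA, rbcL and petB) were detected in each genotype, with a summed level in CPM of 2863 to 6690 (wild type), 2795 to 5805 (gf14h-1) and 2678 to 5321 (hdac19-2b). Most of this sum was rbcL, with means of 4500, 3819 and 3651 CPM in the same order. The RBCS, LHCB and CAB genes, also looked for as green shoot markers, matched no name or description. Only 210 deposited features carry a gene name or description, and none of these matched the root markers, so root tissue could not be checked.

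CAD5 was well expressed in all 9 libraries, with counts from 820 in gf14h-1 replicate 3 to 3536 in wild type replicate 3. In wild type its level was 181, 118 and 99.0 CPM in replicates 1, 2 and 3. In gf14h-1 it was 118, 151 and 289 CPM. In hdac19-2b it was 151, 158 and 131 CPM. A single library, gf14h-1 replicate 3, stood above the rest, 1.60-fold over the next highest, and the other 8 lay between 99.0 and 181 CPM. The highest library was 2.92-fold above the lowest, which was wild type replicate 3. The exact 95% Poisson interval of counting error was 270 to 310 CPM in gf14h-1 replicate 3 and 95.8 to 102 CPM in wild type replicate 3. These intervals cover counting error only and leave out variation between replicates. PCR copies of a molecule were not told apart and counts were rounded, so the intervals may be too narrow. By library total alone, without the TMM factor, gf14h-1 replicate 3 stood at 248 CPM. The next highest on that scale, wild type replicate 1, stood at 171 CPM.

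Ordered by mean level, gf14h-1 came first at 186 ± 90.8 CPM, then hdac19-2b at 147 ± 13.9 CPM, then wild type at 133 ± 43.0 CPM (SD, n = 3 each). Neighbours in this order did not differ beyond their spread. By the median library the order of the mutants was almost level, with 151 CPM in both and 118 CPM in wild type. The authors' own normalized values gave the same order of means (counts divided by a size factor, SD, n = 3 each). The gf14h-1 mean was 2515 ± 1233, the hdac19-2b mean 1960 ± 199.9 and the wild type mean 1770 ± 569. By library total alone the means were 175 ± 64.9, 155 ± 13.2 and 129 ± 38.1 CPM in that order (SD, n = 3 each). In whole shoots, a change in the amount of lignifying tissue and a change of transcript per cell cannot be told apart.

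**Figure D1:**
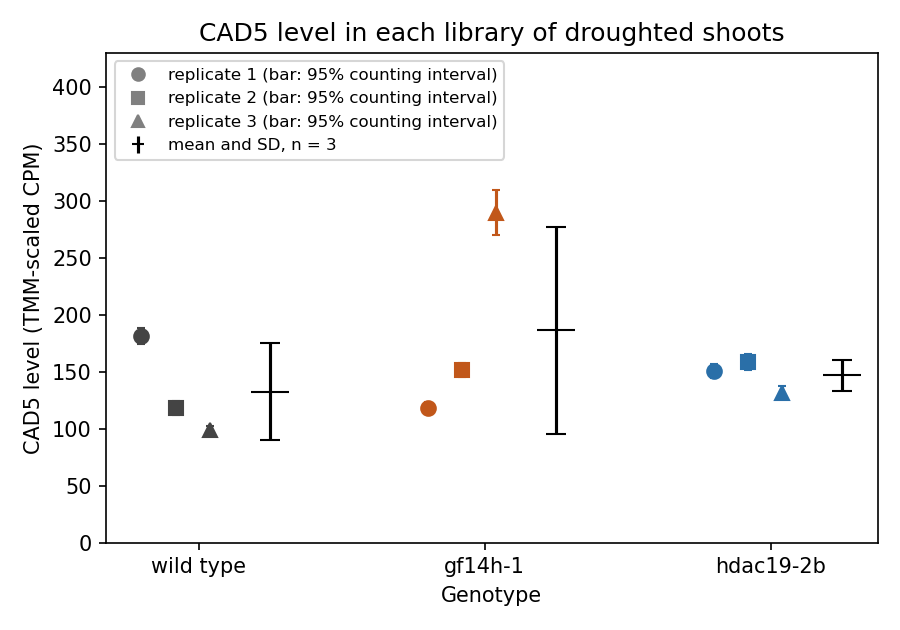
CAD5 level in TMM-scaled CPM (vertical axis, linear from 0) for each library by genotype, with the 95% counting interval as a bar on each point and the mean with its SD (n = 3) in black. The gf14h-1 replicate 3 point at 289 CPM stands above all others, and the hdac19-2b points lie within 131 to 158 CPM.

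The first comparison, of gf14h-1 and wild type, addressed the CAD5 transcript of droughted shoots without intact GF14h. The mutant libraries overlapped wild type, with 1 of 3 above every wild type library. The log2 fold change was 0.48 (SE 0.34), a 1.40-fold higher mean level, with a 95% interval from −0.26 to 1.22. It did not pass the edgeR quasi-likelihood test (adjusted p = 0.855 by Benjamini-Hochberg over 23898 features, threshold 0.05), in a comparison where 0.146% of the tested features were called. Without gf14h-1 replicate 3 the log2 fold change was 0.03, with a 95% interval from −0.55 to 0.60 and an adjusted p of 0.977 by the same edgeR method, so most of the difference came with that library. Other libraries moved it upward. Without gf14h-1 replicate 1 it was 0.72 (95% interval −0.001 to 1.45, edgeR adjusted p = 0.529). Without wild type replicate 1 it was 0.76 (−0.03 to 1.55, edgeR adjusted p = 0.987).

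For hdac19-2b against wild type the question was the same for HDAC19. All 3 mutant libraries lay inside the range of wild type. The log2 fold change was 0.15 (SE 0.33), a 1.11-fold higher mean level, with a 95% interval from −0.59 to 0.88. It did not pass the edgeR quasi-likelihood test (adjusted p = 1.00 by Benjamini-Hochberg), where 0.272% of features were called. Without wild type replicate 3 the sign turned, to a log2 fold change of −0.027. The interval spans changes from 1.51-fold lower to 1.85-fold higher, and these libraries do not tell the differences within it apart.

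Between the mutants, gf14h-1 had 1 library above and 1 below all hdac19-2b libraries. The log2 fold change of gf14h-1 over hdac19-2b was 0.34 (SE 0.34), with a 95% interval from −0.40 to 1.08, and did not pass the edgeR quasi-likelihood test (adjusted p = 0.837 by Benjamini-Hochberg, where 0.0167% of features were called). Without gf14h-1 replicate 3 it was −0.12, with a 95% interval from −0.69 to 0.45. A test for any difference among the 3 genotypes gave an adjusted p of 0.921 (edgeR quasi-likelihood, Benjamini-Hochberg), against 0.322% of features called. Exact two-sided permutation tests on log2 CPM gave p = 0.5, 0.6 and 0.8 for the comparisons in the order given, each 0.8 after Benjamini-Hochberg adjustment over these 3, where 3 libraries against 3 cannot go below 0.1. The libraries of the genotypes overlapped in all 3 comparisons, while they did not overlap for 11.9%, 16.8% and 14% of tested features.

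Set beside all tested features, most of them less abundant, the CAD5 differences were of ordinary size. A smaller absolute log2 fold change was found for 67.4% of features in gf14h-1 against wild type, for 32.6% in hdac19-2b against wild type and for 51.8% between the mutants. The median absolute log2 fold change over all features was 0.29, 0.25 and 0.32 in these comparisons, and the median signed one lay within 0.02 of 0. The fold changes of CAD5 were not ranked among features of like level. Its SD of log2 CPM over 9 libraries was higher than in 44.6% of all features, but higher than in 76.8% of the 500 nearest in mean level.

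CAD5 belonged to the upper part of the distribution of expressed features in every library. Its mean level over 9 libraries was 155 CPM, rank 1140 of 23898 tested features, while the median tested feature had 13.7 CPM. By library its rank ran from 595 in gf14h-1 replicate 3 to 2149 in wild type replicate 3. The share of tested features below it was 91.0% to 95.8% in wild type, 93.0% to 97.5% in gf14h-1 and 94.4% to 95.9% in hdac19-2b. CPM rises with transcript length, so the ranking was repeated per kilobase of gene span, introns included, among 19730 protein-coding genes. There CAD5 stood above 86.9% to 94.5% of genes, at 25.4 CPM per kilobase in wild type replicate 3 and 74.2 CPM per kilobase in gf14h-1 replicate 3. By percentile the same libraries were lowest and highest on both scales. The order of libraries in CPM per kilobase cannot differ from that in CPM, as the same span divides each. One CAD5 count fell on every 4028 counts in gf14h-1 replicate 3 and on every 10360 counts in wild type replicate 3.

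**Figure D2:**
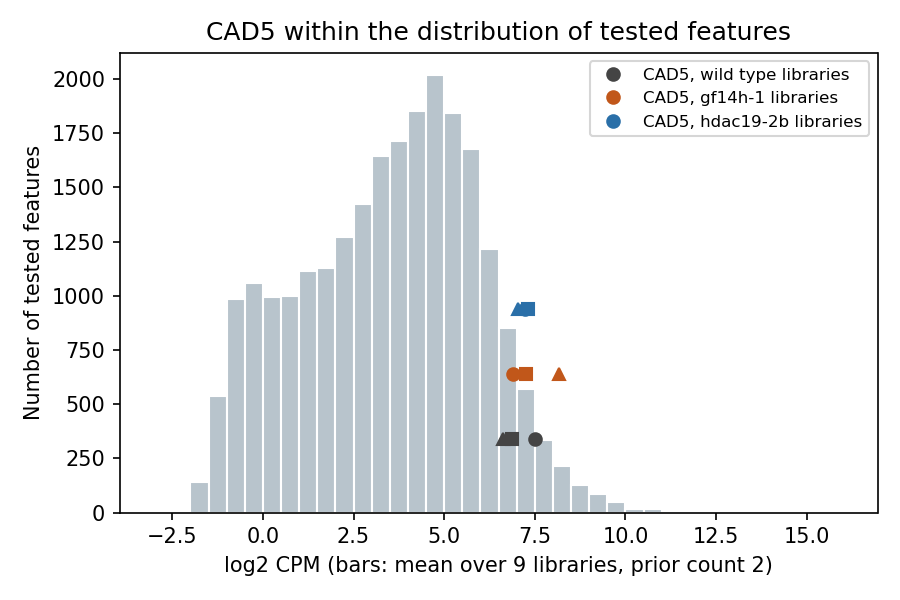
Number of tested features (vertical axis) by mean log2 CPM over 9 libraries (horizontal axis), with the log2 CPM of CAD5 in each library as points (circle, square and triangle for replicates 1, 2 and 3). The height of the points only separates the genotypes, and all of them lie on the upper slope of the distribution.

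The spread of CAD5 among the few replicates was unequal between genotypes. Its coefficient of variation was 9.46% in hdac19-2b, 32.4% in wild type and 48.7% in gf14h-1 (n = 3 each). The gf14h-1 value rests largely on replicate 3, at 289 CPM beside 118 and 151 CPM in replicates 1 and 2. The SD of log2 CPM within hdac19-2b, 0.14, was below the median of 0.20 over the 500 features nearest in mean level. Within wild type it was 0.45 against 0.22, and within gf14h-1 0.67 against 0.40. The edgeR biological coefficient of variation, which takes out counting error and pools the genotypes, was 0.296 for CAD5. It was higher than in 85.2% of those 500 features, whose median was 0.231 and whose mean level ran from 129 to 220 CPM. Against all tested features, most of them less abundant, it was higher than in 42.3%. Relative to features of its level, the replicates of CAD5 thus spread more than the median in wild type and gf14h-1 and less in hdac19-2b, and these spreads were not tested against each other.

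**Figure D3:**
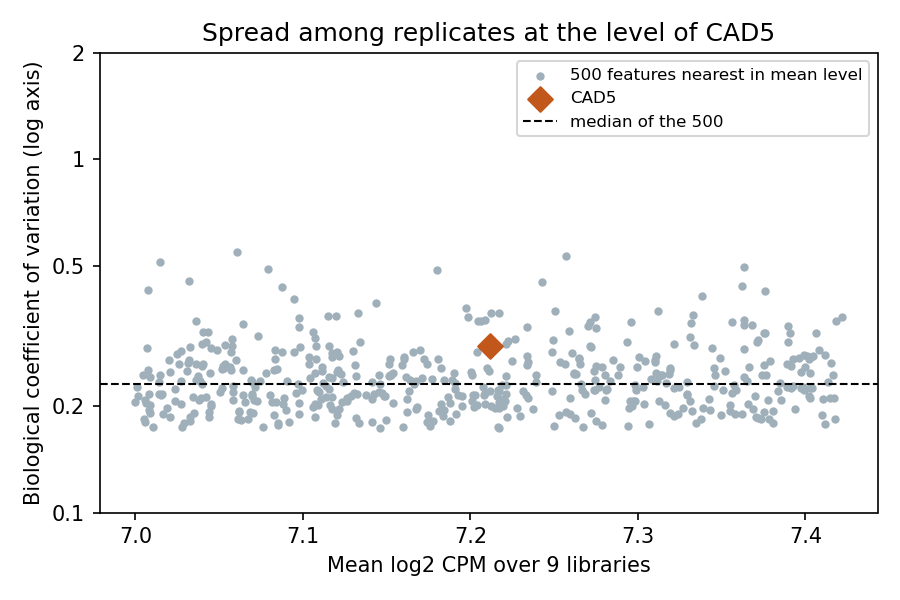
Biological coefficient of variation (vertical log axis) against mean log2 CPM (horizontal axis) for CAD5 and the 500 features nearest in level, with their median of 0.231 as a dashed line. CAD5, at 0.296, lies above the line and inside the cloud.

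The level of CAD5 was highest in the library with the fewest counts and lowest in the library with the most. Over the 9 libraries, log2 CPM and the log2 library total had a Pearson r of −0.876 and a Spearman rho of −0.6. Exact permutation of the libraries gave p = 0.00592 for r and 0.0968 for rho, or 0.0118 and 0.0968 after Benjamini-Hochberg adjustment over both. The relation was looked at after the levels were seen, so these p-values are a description only. Without the 2 libraries farthest in depth, gf14h-1 replicate 3 and wild type replicate 3, Pearson r was −0.0785 and rho −0.143 over 7 libraries, and the relation rests on the pair left out, which also held the extremes of CAD5. Of the 500 features nearest in level, 0% had a lower r with the library total than CAD5, and their median r was 0.04. Over all tested features 0.276% had a lower r. In gf14h-1 replicate 3 lay the highest value of 29.0% of those 500 features and the lowest value of 30%, the largest shares of any library in both directions. Highest there and lowest in wild type replicate 3, as CAD5 was, were 2% of the 500. The part of depth in the CAD5 levels was not tested.

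**Figure D4:**
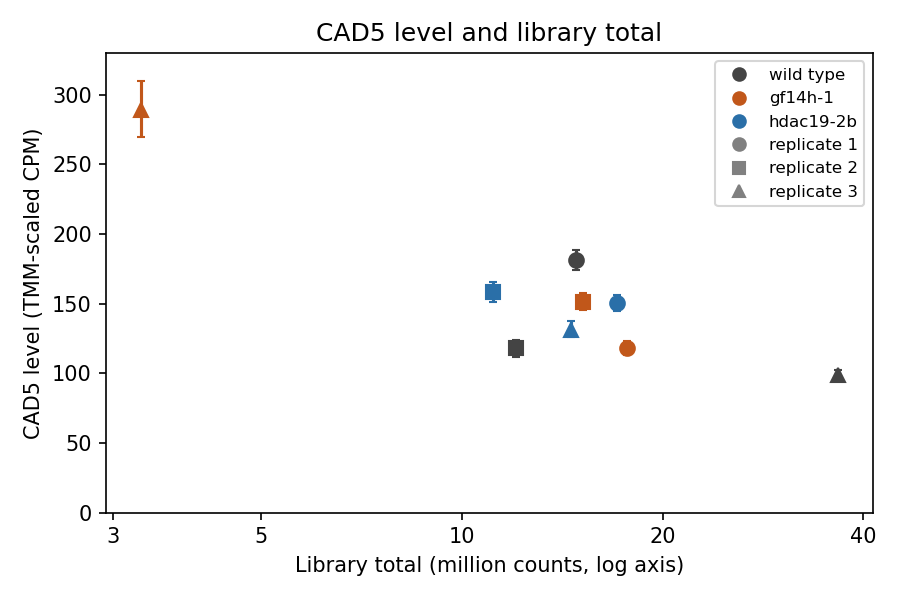
CAD5 level in TMM-scaled CPM (vertical axis) against the library total (horizontal log axis, counts), with 95% counting intervals. The gf14h-1 replicate 3 library lies at the upper left and wild type replicate 3 at the lower right, and the other 7 form a group between 118 and 181 CPM.

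Among the lignin and secondary wall genes looked for by name, the annotation paired few with a locus. Of the monolignol pathway list 2 genes were found, CAD5 and LOC100840920 with the synonym pmt, and 8 of the wall regulator list, SWN1 to SWN8. All 10 were tested. No member of the lists of lignin polymerisation enzymes or of secondary wall cellulose and xylan synthases carries a name there. None of the 10 was called in any of the 3 comparisons by edgeR's quasi-likelihood test, whose background is given above. At an unadjusted p under 0.05 stood 0 of 10 in gf14h-1 against wild type, and 1 of 10, SWN5, in each of the other comparisons. The shares of all tested features at that p were 7.56%, 7.19% and 9.03%, so these counts lie near the background.

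The gene pmt (chromosome 2, 37071654 to 37077012) is described as an N-benzoyltransferase-like gene and has the synonym of a p-coumaroyl-CoA monolignol transferase, which in grasses joins p-coumarate to the alcohols that enzymes such as CAD5 make. Its level was 127, 83.1 and 75.8 CPM for wild type, 62.5, 69.2 and 163 for gf14h-1, and 96.6, 104 and 133 for hdac19-2b, each in replicates 1 to 3. As for CAD5, gf14h-1 replicate 3 was the highest library, and the genotypes overlapped. Its log2 fold changes were 0.03 (SE 0.36) in gf14h-1 against wild type and 0.22 (SE 0.36) in hdac19-2b against wild type, with adjusted p (edgeR quasi-likelihood, Benjamini-Hochberg) of 0.997 and 1.00. Between the log2 levels of pmt and CAD5 Pearson r was 0.74 over 9 libraries and 0.54 without gf14h-1 replicate 3, a description of libraries that share depth and genotype.

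The SWN genes, NAC factors of the kind that activates wall thickening, had summed levels in CPM of 30.1 to 47.5 (wild type), 36.0 to 59.6 (gf14h-1) and 33.1 to 42.7 (hdac19-2b). Among those with a mean of at least 1 CPM, SWN8 had the highest r with CAD5 over 9 libraries, 0.79, but without gf14h-1 replicate 3 its r was 0.42 and that of SWN2 was higher, at 0.48. Its level was 16.4, 11.8 and 10.3 CPM for wild type, 14.2, 9.11 and 31.8 for gf14h-1, and 16.1, 15.3 and 17.8 for hdac19-2b. Again gf14h-1 replicate 3 was far above the rest. For SWN5 the levels were 9.79, 6.48 and 6.05 CPM in wild type and 5.20, 3.29 and 3.3 CPM in hdac19-2b. These did not overlap, which also held for 16.8% of all tested features in this comparison. The log2 fold change of SWN5 was −0.91 (SE 0.39), with an adjusted p of 0.628 (edgeR quasi-likelihood, Benjamini-Hochberg). The 8 SWN genes went both ways, with 5 of 8 above wild type in each mutant. Against wild type their log2 fold changes in gf14h-1 ran from −0.77 for SWN3 to 1.73 for SWN1, both at low counts, around a median of 0.26, and in hdac19-2b the median was 0.20, beside medians within 0.02 of 0 over all features.

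**Figure D5:**
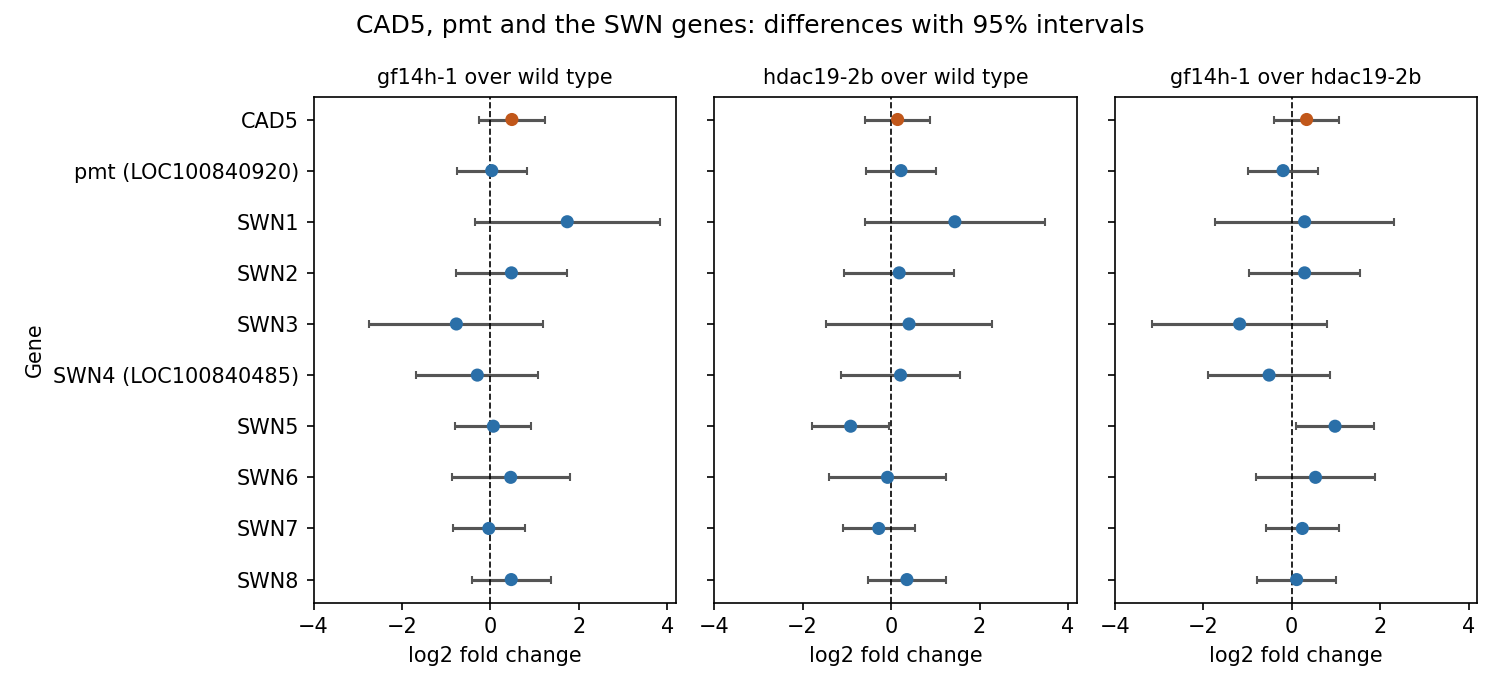
Log2 fold changes with 95% intervals (horizontal axis) for CAD5, pmt and the 8 SWN genes (vertical axis) in the 3 comparisons. The intervals include 0 for CAD5 and pmt throughout, and exclude 0 before adjustment for SWN5 in both comparisons with hdac19-2b.

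The genes on either side of CAD5 differed in how far they followed it. Pearson r of log2 CPM with CAD5 was 0.40 over 9 libraries and 0.29 without gf14h-1 replicate 3 for LOC100845496, 0.30 and 0.13 for LOC100821506, and 0.51 and 0.73 for LOC100841338, a description of libraries that share depth and genotype. Toward lower coordinates, LOC100845496 (4685932 to 4687338, plus strand, 3695 bases away) had 20.6 ± 3.97 CPM in wild type, 13.6 ± 6.62 in gf14h-1 and 14.0 ± 3.37 in hdac19-2b (SD, n = 3 each). Its next neighbour, LOC100821506, had 59.7 ± 11.98, 52.2 ± 10.1 and 52.4 ± 11.5 CPM in the same order. Toward higher coordinates, LOC100841338 (4699672 to 4701901, minus strand, 4737 bases away) had 41.1 ± 18.1, 41.1 ± 5.83 and 32.9 ± 5.15 CPM, and LOC100841643 had 0.975 ± 0.307, 1.17 ± 1.17 and 0.591 ± 0.360 CPM (SD, n = 3 each). Where CAD5 had its peak, in gf14h-1 replicate 3, these genes stood at 20.5, 62.1, 39.9 and 2.47 CPM in the order named, within the range of wild type for the first 3. Among these neighbours the lowest adjusted p (edgeR quasi-likelihood, Benjamini-Hochberg) was 0.792.

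Among 21988 features with a mean of at least 1 CPM, the one most like CAD5 in log2 CPM over the 9 libraries was LOC100839602 on chromosome 2, with a Pearson r of 0.978. Its level was 1.93, 0.575 and 0.420 CPM for wild type, 0.805, 1.77 and 7.06 for gf14h-1, and 1.5, 1.44 and 1.33 for hdac19-2b. This r rests on low counts, as 3 counts correspond to 0.246 CPM in wild type replicate 2 and 1.06 CPM in gf14h-1 replicate 3. Next came LOC100832004 on chromosome 1 with r of 0.971, LOC100843181 on chromosome 3 with 0.957, and LOC100831994 and LOC100830155 on chromosome 1 with 0.951 each. The deposited annotation describes all 5 only as protein-coding. For each of them gf14h-1 replicate 3 was the highest library. Over the other 8 libraries r was 0.940, 0.914, 0.877, 0.854 and 0.864. The 5 were picked over libraries that include these 8, which share depth and genotype, so these values are no separate check. In all, 65 features reached r of at least 0.9 over 9 libraries and 8 over the 8 libraries, with 3 in common.

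Of the 148 features with a gene name or description, LOC100836269 was nearest in pattern, with r of 0.87. It encodes the bZIP transcription factor TRAB1 (synonym ABF2), a factor known in rice for activating abscisic acid responsive genes. Its level was 14.1, 12.6 and 10.3 CPM for wild type, 12.9, 12.4 and 22.6 for gf14h-1, and 11.4, 14.5 and 9.90 for hdac19-2b. LOC100825639, a MADS-box transcription factor 20-like gene, had r of 0.857, and the nucleoside diphosphate kinase gene NDPK2, whose enzyme balances nucleoside triphosphates, had 0.853. Without gf14h-1 replicate 3 the 3 values were 0.591, 0.622 and 0.621, a description of libraries that also served to pick these genes.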

How the data were processed

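Expression was measured by RNA sequencing of poly(A)-selected RNA from 9 libraries, 3 per genotype. The authors deposited estimated counts per feature: between 69.1% and 83.2% of a library's values were whole to within 0.001, so the values were rounded, although whole counts had been planned for. A second deposited table holds a normalized signal, per the file headers counts divided by a median ratio factor per library. Multiplied back by that factor, 99.9% to 100% of its values were whole to within 0.1. In each library at least 99.9965% of them equalled the rounded counts. The edgeR test on them called 35, 65 and 4 features in the 3 comparisons, which is therefore no separate check. That table lacks 153 features. HISAT2, Partek, DESeq2 and FastQC 0.11.9 appear in the submitters' processing notes, with no roles. The counting program and any use of strand: not given in the sources used here.

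One edgeR 4.0.16 quasi-likelihood fit (R 4.3.3) of all 9 libraries, with genotype as the only term, followed TMM scaling and the default filter, which kept 23898 features with 99.9% of counts. Benjamini-Hochberg adjusted p under 0.05 was called. SE is the absolute log2 fold change over the square root of F. Log2 CPM uses a prior count of 2. DESeq2 1.42.0, limma-trend (limma 3.58.1), other scaling, filters and libraries were alternatives. Named genes were CAD5, its 2 nearest genes on each side, the 5 most and 3 least similar patterns, the 3 most similar named genes, and lists matched by symbol, synonym or description. The members and lists were chosen with earlier results of these data known. Names and coordinates came from RefSeq (Brachypodium_distachyon_v3.0), which shares the start of 98.5% of deposited gene features and holds the gene of 28446 of 28454 normalized features. Replicates of a genotype all differed by more than sampling noise (lowest chi-square 18.0 times its degrees of freedom).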

Additional observations from a re-analysis of the deposited data

How the results depend on the processing

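CAD5 passed the threshold of an adjusted p of 0.05 in none of the alternatives run for its 3 comparisons and the test over genotypes. Its log2 fold change ran from 0.03 to 0.76 over single left-out libraries and from 0.19 to 0.50 over the other settings in gf14h-1 against wild type (edgeR, limma-trend or DESeq2 adjusted p of 0.529 to 1.00). It ran from −0.027 to 0.43 and from 0.14 to 0.19 in hdac19-2b against wild type, and from −0.12 to 0.58 and from 0.04 to 0.36 between the mutants. The sign turned without wild type replicate 3 (−0.027, hdac19-2b against wild type) and without gf14h-1 replicate 3 (−0.12, between the mutants). Without both gf14h-1 libraries 1 and 3, where the lone library is assumed to vary like the other groups, the value against wild type was 0.19. The percentile of the CAD5 dispersion among tested features was 28.4 to 41.8 over left-out libraries, lowest without gf14h-1 replicate 3, against 42.3 with all. Per kilobase of gene span CAD5 lay at mean percentile 89.7 in wild type, 92.3 in gf14h-1 and 92.0 in hdac19-2b, against 93.3, 95.2 and 95.1 by CPM. That scale, which replaced a planned one by coding length that was not run, was chosen after seeing the data, as was the left-out-library range of the dispersion.

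The background counts of called features moved more. For gf14h-1 against wild type, 35 features became 4 to 51 over left-out libraries, 4 with only the 6 libraries compared and 352 with DESeq2. For hdac19-2b, 65 became 2 to 190 over left-out libraries, 235 with only 6 libraries, 217 without both gf14h-1 libraries, 146 with counts summed per gene and 563 with DESeq2. Between the mutants, 4 became 2 to 7, then 1 with only 6 libraries and 279 with DESeq2. Leaving out 1 library moved the first count by over 1.5 times in every case but gf14h-1 replicate 3, the second in every case but wild type replicate 2 and gf14h-1 replicate 2, and the last without wild type replicates 2 or 3, gf14h-1 replicates 1 or 2, or hdac19-2b replicate 1. The cause was not tested. Equal replicate numbers did not pair the libraries: the deviations of the 9 equal-numbered pairs correlated at −0.136 to 0.0204, and 0 of 9 correlated best with their own number. With the replicate block CAD5 had log2 fold changes of 0.46, 0.15 and 0.31 in the order above, and 4, 12 and 2 features were called.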

Other observations

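The genes with the pattern most opposed to CAD5 were LOC100830587 on chromosome 5, LOC100840458 on chromosome 1 and LOC100821235 on chromosome 1, all protein-coding, with Pearson r of −0.969, −0.967 and −0.962 over the 9 libraries. In CPM, LOC100830587 stood at 91.3, 126 and 119.9 for wild type, 114, 103 and 62.1 for gf14h-1, and 101, 102 and 111 for hdac19-2b. Without gf14h-1 replicate 3 the values of r were −0.926, −0.903 and −0.890 over 8 libraries. These genes were picked over libraries that include those 8, so the values are no separate check.

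The green shoot markers had negative correlations with CAD5 of unequal size. Pearson r with the log2 level of CAD5 was −0.87 for petB, which encodes cytochrome b6 of the thylakoid, and −0.84 for psaA, a core protein of photosystem I. For psbD and psbA of photosystem II it was −0.68 and −0.60, and for rbcL, the large subunit of Rubisco, −0.18. In gf14h-1 replicate 3, where CAD5 was highest, petB stood at 1.76 CPM (5 counts) and psaA at 9.88 CPM, the lowest of the 9 libraries for both. It was not the lowest library for the other 3 markers, with psbA at 63.5 CPM, psbD at 105 CPM and rbcL at 3735 CPM. Over the other 8 libraries r was −0.56 for petB, −0.75 for psaA, −0.56 for psbD, −0.55 for psbA and −0.29 for rbcL. Libraries were poly(A)-selected, so the levels of these chloroplast transcripts are those that passed that selection, and their part in the CAD5 levels was not tested.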
